A study of Mus musculus with 12 samples.

Results

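The expression of 10 genes of the cartilage lineage was examined in the mouse osteosarcoma lines Dunn and LM8. The genes were Sox9, Sox5, Sox6, Acan, Col2a1, Col9a1, Col10a1, Matn1, Matn3 and Hapln1. Every non-control probe whose accession belongs to one of them was taken, which gave 11 probes for 10 of 10 genes, among 20144 genes with a probe in all. Dunn is the parental line and seldom spreads, and LM8 was selected from it in mice for spread to the lung, so each stands for 1 cell population and not for several tumours. Both are labelled osteoblastic. RNA came from Dunn cells at passages 25 (early) and 86 (late) and from LM8 cells at passages 24 (early) and 91 (late). Each of the 4 groups had 3 RNA samples on 3 single-colour Agilent arrays. The late cells of a line were derived from its early cells by passaging. All groups were grown in the same medium with fetal calf serum and without any treatment. Frozen early and late cells had been thawed and cultured for a few more passages before RNA was taken. The methods name TriReagent for the extraction, whereas the labels name RNeasy.

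Cartilage cells arise from mesenchymal progenitors that also give rise to bone-forming osteoblasts. The transcription factor SOX9 starts the programme, and SOX5 and SOX6 work with it to switch on the matrix genes. The matrix itself is a network of collagen II fibrils coated with collagen IX, filled with the proteoglycan aggrecan, which link protein ties to hyaluronan, and bridged by matrilins. Collagen X appears later, when chondrocytes of the growth plate enlarge before bone replaces them. Some osteosarcomas lay down cartilage-like matrix beside bone matrix.

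Levels are given as the log2 processed signal of a probe minus the log2 75th percentile of all probes on the same array, so a level of 0 equals that percentile. A probe counts as well above background by the scanner software's own test. The 75th percentile ran from 253.1 to 521.6 signal units on the early Dunn arrays, 609.1 to 840.4 on the late Dunn arrays, 788.2 to 1148 on the early LM8 arrays and 1033 to 1699 on the late LM8 arrays. From 39.0% to 49.0% of probes were well above background on the early Dunn arrays and from 52.4% to 59.6% on the other 9 arrays. Replicate 1 of late Dunn stood apart from its 2 replicates, with correlations of 0.919 and 0.923 over all probes against 0.986 between the others. The arrays of replicate 1 shared a slide, as did those of replicates 2 and 3. On slide 1, the lowest signals well above background were at -3.39 in early and -4.19 in late Dunn, against -7.05 to -4.49 on the other 10 arrays.

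Link protein and collagen X were the members with the largest passage differences in Dunn cells, so the promoters of Hapln1 and Col10a1 are shown. They come from RefSeq (GRCm38.p6, plus strand) and are printed up to the annotated start of the gene. For Hapln1 that start lies within the searched window, since the transcript of the promoter table begins further downstream, so the last bases of its window are not shown. Capitals mark the motifs found in a search, on both strands, of the 250 bases before the start of the transcript in the table. The search used TATAAA for the core of a TATA box, AACAAT for a SOX core, AACCACA for a RUNX core and TGAGTCA for an AP-1 site.
Hapln1, chr13:89540386-89540528: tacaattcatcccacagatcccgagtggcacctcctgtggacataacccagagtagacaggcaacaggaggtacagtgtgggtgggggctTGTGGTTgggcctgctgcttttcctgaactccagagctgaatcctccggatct
Col10a1, chr10:34389731-34389980: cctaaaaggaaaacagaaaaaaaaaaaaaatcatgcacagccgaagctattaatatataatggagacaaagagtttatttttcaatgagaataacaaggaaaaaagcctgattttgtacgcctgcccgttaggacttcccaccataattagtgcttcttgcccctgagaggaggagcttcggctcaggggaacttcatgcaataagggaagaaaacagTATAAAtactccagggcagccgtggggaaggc

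The Hapln1 window held 1 RUNX core, on the minus strand and 160 to 154 bases before the transcript start of the table, which is not the end of the printed bases, and the Col10a1 window held 1 TATA box, 32 to 27 bases before the start. Of 32851 promoter windows of this length, 4.4% held the RUNX core and 12.4% the TATA box. Neither window held the SOX core, found in 9.42% of windows, or the AP-1 motif, found in 4.46%. The Hapln1 window had 2 CpG dinucleotides and the Col10a1 window 5, against a median of 6 over all windows. These matches describe letters only. An entry was held for 8 of the 10 genes, not for Sox9 and Col2a1.

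Of the 10 genes, Col2a1 and Sox6 were well above background on every array with a value, Matn1 was so on none, and the other 7 were so on some. The plot of the 11 probes over the 12 arrays shows this pattern.

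**Figure D1:**
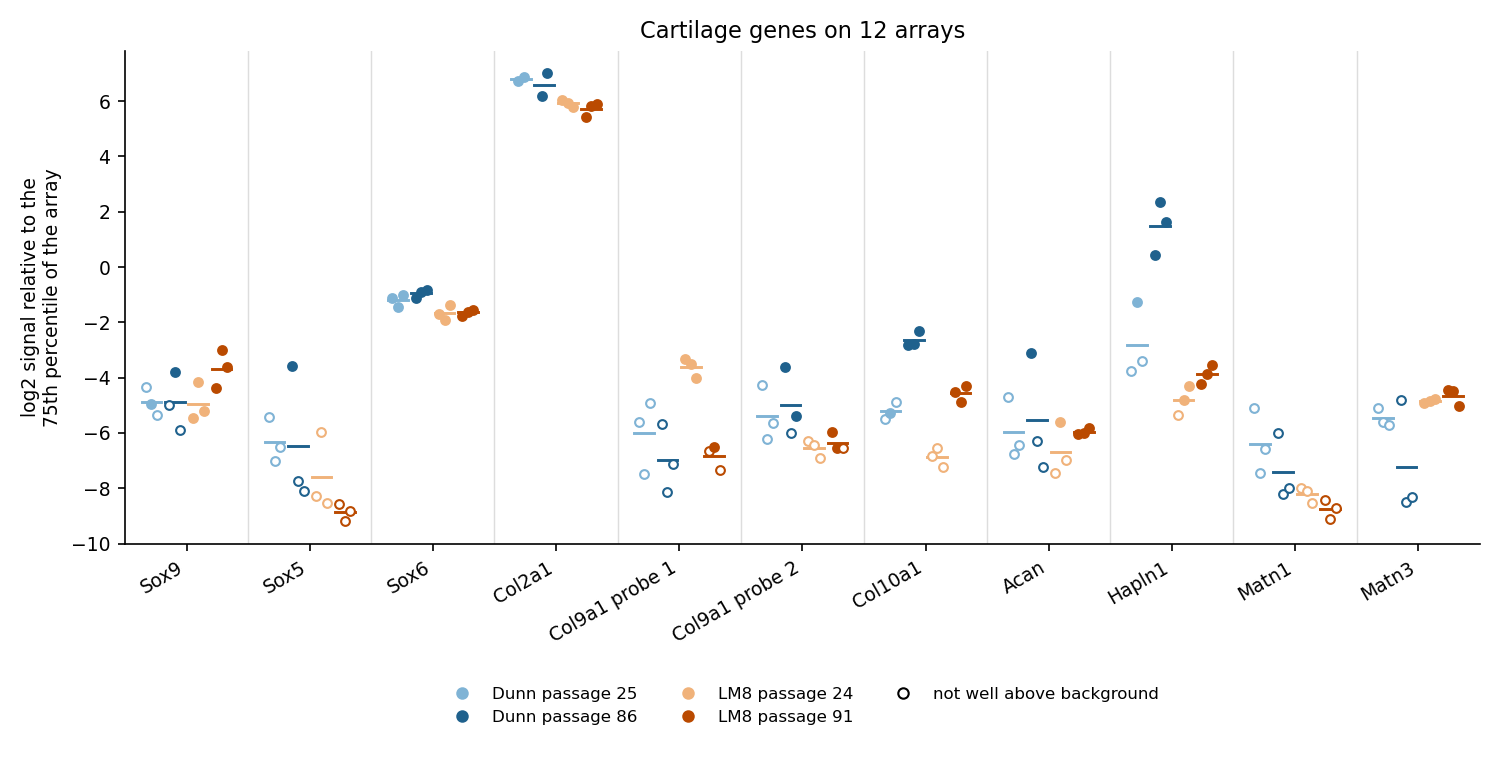
Level of each cartilage probe (log2 signal relative to the 75th percentile of the array) on each array, with a bar for the mean of each group and open circles where the probe was not well above background. Hapln1 and Col10a1 stand highest in late Dunn, Col9a1 probe 1 is above background in all 3 early LM8 arrays, and Matn1 is open throughout.

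Sox9 encodes the factor that founds the cartilage lineage and was printed at 10 spots of 1 probe, so its signal can be followed within an array. The arrays read -4.33, -4.94 and -5.34 in early Dunn, -4.99, -3.78 and -5.88 in late Dunn, -5.46, -4.17 and -5.21 in early LM8 and -4.39, -3.01 and -3.62 in late LM8. The probe was well above background, in most of its spots, on 1 array of each Dunn group and on all 6 LM8 arrays. The SD between the spots of an array ran from 0.34 in replicate 3 of late LM8 to 1.63 in replicate 3 of late Dunn. On that last array 4 of 9 spots were well above background and the spots ran from -7.75 to -3.89, a range wider than the distance between any of the group means. Wide and narrow sets occurred in both lines, with an SD of 0.41 in replicate 1 of late Dunn and 1.08 in replicate 1 of early LM8, as the plot of the spots shows.

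**Figure D2:**
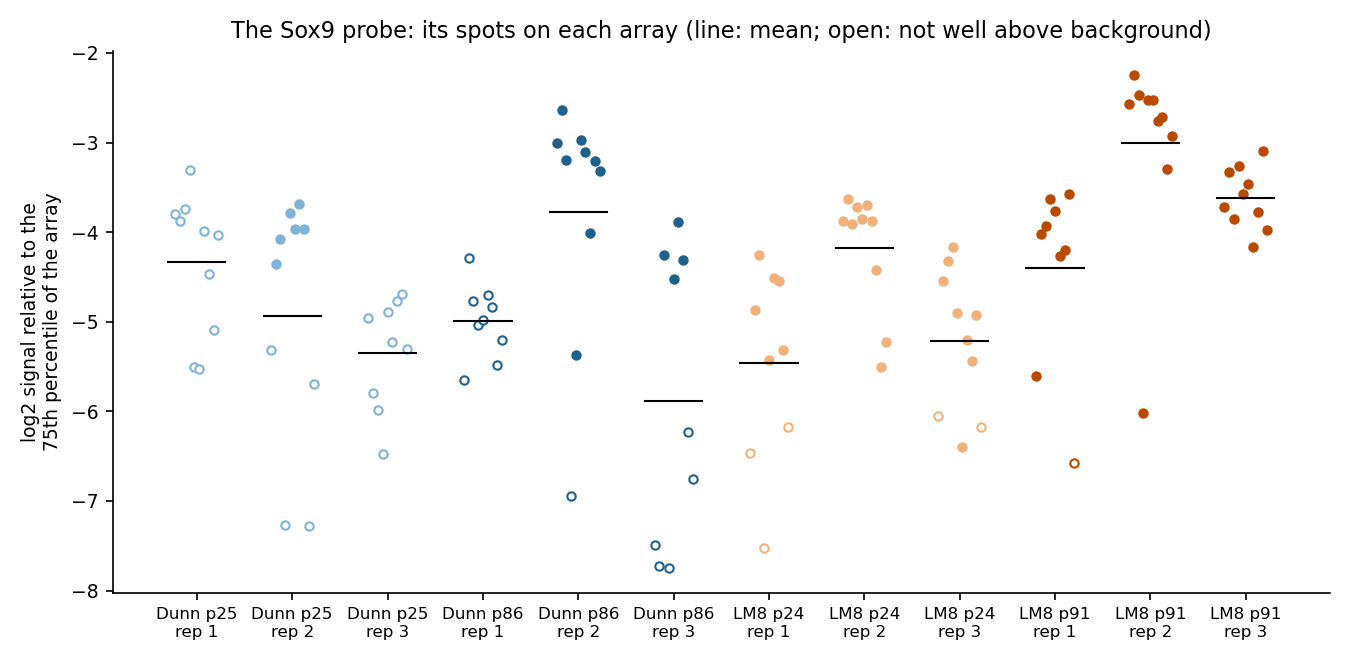
Level of each spot of the Sox9 probe on the 12 arrays (log2 signal relative to the 75th percentile of the array), with a black line at the mean and open circles where the spot was not well above background. The spots of late LM8 replicate 3 spread with an SD of 0.34 and those of late Dunn replicate 3 with an SD of 1.63.

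Sox6 encodes a partner of SOX9 without an activation domain of its own. It read -1.12, -1.44 and -1 in early Dunn, -1.11, -0.92 and -0.82 in late Dunn, -1.70, -1.92 and -1.38 in early LM8 and -1.76, -1.62 and -1.54 in late LM8. All late LM8 values lay below all late Dunn values, while the early groups overlapped. Sox5, the close relative of Sox6, was well above background on 1 of 12 arrays, replicate 1 of late Dunn at -3.58, where the other late Dunn arrays read -7.72 and -8.09. That array is on slide 1. The other Sox5 values ran from -9.19 to -5.41 and give no level.

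Col2a1 encodes the fibril-forming collagen that defines hyaline cartilage, and its probe was bright in both lines, with 29700 to 96700 signal units before scaling and saturation on no array. Its spot was flagged as an outlier on replicate 1 of early Dunn and replicate 2 of late Dunn, so each Dunn group has 2 values. These were 6.73 and 6.88 in early Dunn and 6.17 and 7.01 in late Dunn. LM8 read 6.03, 5.94 and 5.78 in the early and 5.43, 5.83 and 5.91 in the late passage. Every LM8 value lay below every Dunn value, by the narrow gap from 6.17 to 6.03 at its closest.

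Col9a1 encodes a chain of collagen IX, which sits on collagen II fibrils. Its 2 probes gave different patterns, and both are given. Probe 1 read -3.34, -3.52 and -4.03 in early LM8, well above background on all 3 arrays, and -6.67, -6.51 and -7.34 in late LM8, where 1 array passed. In Dunn it passed on none of 6 arrays, with readings of -8.14 to -4.90. Probe 2 passed on 2 arrays of late Dunn and 2 of late LM8 and on no early array, and read from -6.91 to -3.60. Its early and late LM8 values, -6.29, -6.44 and -6.91 against -5.97, -6.56 and -6.54, overlapped. Which transcripts each probe reports is not given in the sources used here.

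Col10a1 encodes the network-forming collagen of hypertrophic cartilage. It read -5.48, -5.29 and -4.88 in early Dunn (above background on 1 of 3 arrays), -2.83, -2.79 and -2.32 in late Dunn (3 of 3), -6.84, -6.53 and -7.22 in early LM8 (0 of 3) and -4.51, -4.89 and -4.30 in late LM8 (3 of 3). In both lines every late value lay above every early value. From high to low the groups ran late Dunn, late LM8, early Dunn, early LM8, and the neighbours late LM8 and early Dunn met at -4.89 and -4.88.

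Hapln1 encodes link protein, which locks aggrecan onto hyaluronan. It read -3.77, -1.26 and -3.41 in early Dunn (above background on 1 of 3 arrays), 0.43, 2.34 and 1.63 in late Dunn (3 of 3), -5.35, -4.82 and -4.30 in early LM8 (2 of 3) and -4.23, -3.86 and -3.53 in late LM8 (3 of 3). Before scaling these are 23.8 to 218 signal units in early Dunn, 900 to 4260 in late Dunn and 19.4 to 117 in LM8. Late Dunn therefore stood alone, early Dunn overlapped late LM8, and the LM8 groups were close neighbours at -4.30 and -4.23.

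Acan, the core protein of aggrecan, stayed near background. It passed on no early Dunn array, on replicate 1 of late Dunn at -3.11, on replicate 2 of early LM8 at -5.59 and on all 3 late LM8 arrays, at -6.04, -6.00 and -5.83. Matn3, a matrilin of epiphyseal cartilage, passed on no Dunn array and on all 6 LM8 arrays, at -4.90, -4.86 and -4.76 in the early and -4.43, -4.48 and -5.04 in the late passage. Its Dunn readings were -5.08, -5.61 and -5.73 early and -4.82, -8.50 and -8.32 late, so the reading of slide 1 overlapped LM8. Matn1, cartilage matrix protein, passed on 0 of 12 arrays.

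Passage in Dunn cells was addressed first, since the study asked how stable the expression of each line is in culture. Hapln1 was 4.28 higher on the log2 scale in late than in early cells (SE 0.85, 19.5-fold), and Col10a1 was 2.57 higher (SE 0.34, 5.93-fold). On slides 1, 2 and 3 taken alone the difference was 4.21, 3.60 and 5.04 for Hapln1 and 2.65, 2.50 and 2.55 for Col10a1, higher in 3 of 3 slides for each. These sizes rest in part on background readings, since each gene was well above background on 1 of 3 early Dunn arrays. On slide 1 the early readings, -3.77 for Hapln1 and -5.48 for Col10a1, lay under that array's lowest signal well above background, -3.39. On slide 3 the early Col10a1 reading of -4.88 lay under -4.49, the lowest such signal there. Both genes were past 2-fold at an unadjusted limma p under 0.05, the level the study used, and neither was past a false discovery rate under 0.05 (adjusted p = 0.436 and 0.227). These are 2 of 10 members, both higher, where 1.56% of 20043 genes were called higher, 3.98% lower and 5.54% in either direction. At the false discovery rate 0 members were called by limma and 0 by the methods' t-test, against 0.00499% of all genes, which is 1 gene. In RNA of a whole culture, more cells that express a gene and more RNA per cell cannot be told apart.

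None of the other 8 genes passed in Dunn cells. Its 95% interval was -1.56 to 1.54 for Sox9, -0.50 to 0.98 for Sox6 and -1.69 to 1.26 for Col2a1, the last from 2 values per group. The median log2 difference was 0.115 over the members and -0.355 over all genes, and 1.09 and 0.614 without scaling between arrays. With normexp background correction, which adds an offset to every signal, Hapln1 kept a difference of 2.31 and Col10a1 had none (-0.03). Without slide 1, Hapln1 passed the false discovery rate (4.32, adjusted p = 0.0474), and with the spread estimated over all 12 arrays both genes did (adjusted p = 0.0162 and 0.00293).

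Between the LM8 passages Col10a1 and 1 of the 2 Col9a1 probes passed the false discovery rate. Col10a1 rose by 2.29 on the log2 scale (SE 0.26, adjusted p = 0.0077), a rise of at least 3.40-fold since the early cells gave only a background bound. Probe 1 of Col9a1 fell by 3.21 (SE 0.30, 9.25-fold, adjusted p = 0.00347), while probe 2 differed by 0.19 with an interval of -0.45 to 0.83. Taken slide by slide, Col10a1 was higher and Col9a1 probe 1 lower in the late cells on 3 of 3 slides. They are 2 of 10 members past 2-fold at a false discovery rate under 0.05, 1 in each direction, where 1.08% of 20144 genes were called higher, 2.03% lower and 3.11% in all. At the unadjusted level Sox9 joined them (1.27, SE 0.46, adjusted p = 0.287), for 3 of 10 members, 2 higher and 1 lower, where 3.09% of genes were higher, 5.79% lower and 8.88% called in all. Its early and late ranges overlapped, and the unadjusted call was lost in 4 of 6 fits that left out 1 array (replicate 1 or 3 of early or replicate 2 or 3 of late LM8), with the floor on dim signals, in 1 fit over 12 arrays and by the methods' t-test.

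Hapln1 differed by 0.95 between the LM8 passages (SE 0.33, adjusted p = 0.269), less than 2-fold, with no overlap of the groups. Sox6 and Col2a1 differed by 0.03 and -0.19, with intervals of -0.48 to 0.54 and -0.70 to 0.31. The median over the members was 0.188 and over all genes -0.196, with 7 members above 0 and 3 below, against 8 and 2 in the deposited table without scaling and 4 and 6 after normexp. With the slide fitted as a block, Col10a1 lost its call (adjusted p = 0.0708) and Col9a1 kept it (0.0158), and under normexp correction both lost theirs (0.42 and -1.19 on the log2 scale, adjusted p = 0.707 and 0.062). Without slide 1, on 2 arrays per group, neither passed (adjusted p = 0.119 and 0.0633), nor did either by the methods' t-test (0.0761 and 0.063). Col9a1 also lost its call in 1 fit over 12 arrays (0.0972) and with 1 probe per gene, where probe 2 stands for it.

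Whether passage acted differently in the lines was tested with an interaction term on the 12 arrays. The passage difference of Hapln1 in LM8 minus that in Dunn was -3.33 on the log2 scale (SE 0.96, adjusted p = 0.35). It was the 1 member past 2-fold at an unadjusted p under 0.05, where 2.36% of genes were lower, 3.72% higher and 6.08% called in all. By limma 0 members passed the false discovery rate, where 0.279% of genes were lower, 0.399% higher and 0.679% called. For Col10a1 the interaction was -0.28 with an interval of -1.19 to 0.63, so its passage differences in the lines were not told apart. For Col9a1 probe 1 it was -2.24 with an interval of -4.52 to 0.04. The plot of passage differences shows the Col10a1 intervals of the lines overlapping and those of Hapln1 apart.

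**Figure D3:**
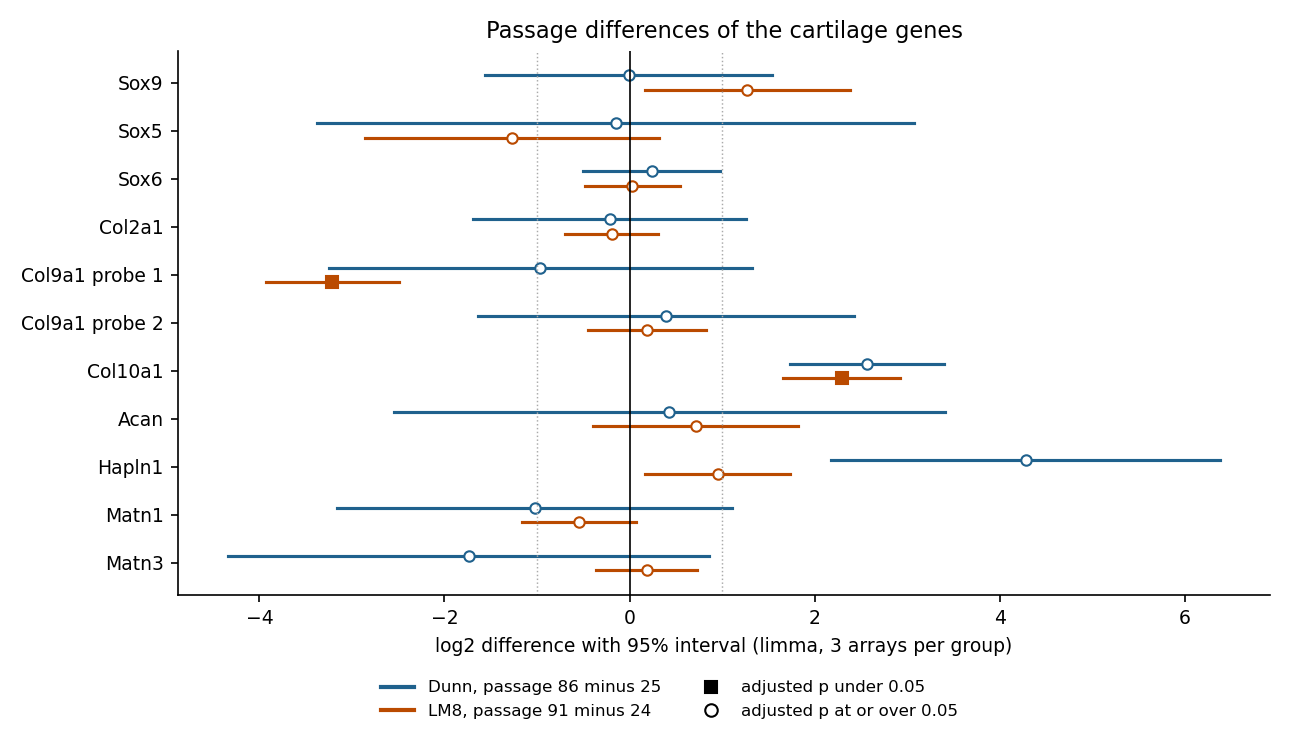
Late minus early difference of each cartilage probe on the log2 scale with its 95% interval (limma, 3 arrays per group, 2 for Col2a1 in Dunn), for Dunn and LM8; squares mark an adjusted p under 0.05 and dotted lines 2-fold. Col10a1 lies at 2.57 in Dunn and 2.29 in LM8, whereas Hapln1 lies at 4.28 in Dunn and 0.95 in LM8.

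The lines were compared next, because the study sought genes that mark the metastatic line and do not depend on passage. At late passage Hapln1 was 40.6-fold lower in LM8 than in Dunn (-5.34 on the log2 scale, SE 0.54, adjusted p = 0.00975), by -4.67, -6.20 and -5.16 on the 3 slides. Col10a1 was lower too (-1.92, SE 0.28, 3.78-fold, adjusted p = 0.0308). These 2 of 10 members passed 2-fold at a false discovery rate under 0.05, both lower, where 1.36% of 20124 genes were higher, 2.87% lower and 4.23% called in all. The same 2 passed at the unadjusted level, where 5.75% of genes were higher, 10.9% lower and 16.6% called. The median was -1.11 over the members and -0.575 over all genes, and -0.147 and 0.315 without scaling between arrays.

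Both late differences held their sign without each array in turn, from -5.86 to -4.91 for Hapln1 and from -2.05 to -1.76 for Col10a1, but not their calls. The adjusted p of Hapln1 was 0.0708, 0.0798 and 0.072 without replicates 1, 2 and 3 of late LM8 and 0.0557 without replicate 3 of late Dunn. For Col10a1 it was 0.146, 0.177 and 0.123 without those LM8 replicates and 0.0796 and 0.112 without replicates 2 and 3 of late Dunn. In the fit that blocks on slide the adjusted p were 0.0614 and 0.116, and 0 members passed. Sox6 differed by -0.69 (SE 0.22, adjusted p = 0.18), less than 2-fold.

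At early passage no member passed the false discovery rate by limma or by the methods' t-test, where 1.49% of 20059 genes were higher, 3.77% lower and 5.26% called in all by limma. At the unadjusted level 4 of 10 members were called, 1 higher and 3 lower, where 5.46% of genes were higher, 38.5% lower and 43.7% called in all. Col9a1 probe 1 was at least 1.83-fold higher in early LM8 (2.38 on the log2 scale, adjusted p = 0.0737). Col10a1 was at least 2.17-fold lower, since no early LM8 array was above background (-1.64, adjusted p = 0.0529). Hapln1 was lower by -1.57, -3.57 and -0.89 on the 3 slides (-2.01 in the fit, SE 0.70, adjusted p = 0.0762). The fourth, Matn1, was below background in all groups and has no fold. Col2a1 differed by -0.89 (SE 0.34, adjusted p = 0.102), less than 2-fold. The median was -1.03 over the members and -0.781 over all genes, with 1 member above 0 and 9 below. Without scaling between arrays these medians were 0.442 and 0.699, with 7 members above 0 and 3 below, and 33.9% of genes were called higher and 1.73% lower at the unadjusted level.

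Without replicate 2 of early Dunn, Col10a1, Col9a1 and Matn1 passed the false discovery rate (adjusted p = 0.0159, 0.0198 for Col9a1 probe 1 and 0.0117). The Col9a1 probes passed there in opposite directions, probe 1 higher and probe 2 lower in LM8. Normexp correction turned Col9a1 probe 1 to -0.73, and with no scaling between arrays the difference of Col2a1 turned to 0.56.

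The passages were then pooled, 6 arrays against 6, with no term for passage, so passage differences within a line count as spread. The SE of Col10a1 was 0.72 in this fit, against 0.34 at early and 0.28 at late passage. In the pooled comparison 6 members were past 2-fold at the unadjusted level, 1 higher and 5 lower in LM8, where 6.27% of 20043 genes were higher, 38.9% lower and 44.9% called in all. At a false discovery rate under 0.05 there were 3, all lower, where 5.35% of genes were higher, 33.2% lower and 38.4% called, so the members' share is near that of all genes. Hapln1 was lower by -3.68 (SE 0.99, adjusted p = 0.0227) and passed without each of the 12 arrays in turn. Probe 2 of Col9a1 differed by -1.27 (adjusted p = 0.0325), with 4 of 12 arrays above background. It lost its call without any 1 of replicates 1 and 3 of early Dunn (adjusted p = 0.0677 and 0.0592), replicate 1 of late Dunn (0.0511), replicate 3 of early LM8 (0.063) and replicates 2 and 3 of late LM8 (0.0644 and 0.0614). Matn1 had no array above background. Without slide 1 no member passed.

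Col2a1 was 1.84-fold lower in LM8 over the pooled passages (-0.88, SE 0.23, adjusted p = 0.0253). Sox6 differed by -0.58 (SE 0.18, adjusted p = 0.0286). Both are less than 2-fold, and both turned to the other side, 0.36 and 0.61, in the deposited table without scaling between arrays. Over all genes that table moved the median from -0.692 to 0.494, so these directions hold only relative to the 75th percentile. Of the 10 members 8 lay below 0 with that scaling, 5 without it, 7 after quantile normalization and 10 after normexp. Among all genes at the unadjusted level the shares higher and lower were 9.23% and 9.09% after quantile normalization and 29.8% and 2.27% without scaling. Matn3, above background on the LM8 arrays alone, differed by 1.60 (adjusted p = 0.0534) and by -0.79 under normexp correction. Hapln1 stayed lower in LM8 in the pooled comparison under all alternatives run, with adjusted p over 0.05 without slide 1 (0.0621) and without scaling. The plot of line differences sets both passages side by side.

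**Figure D4:**
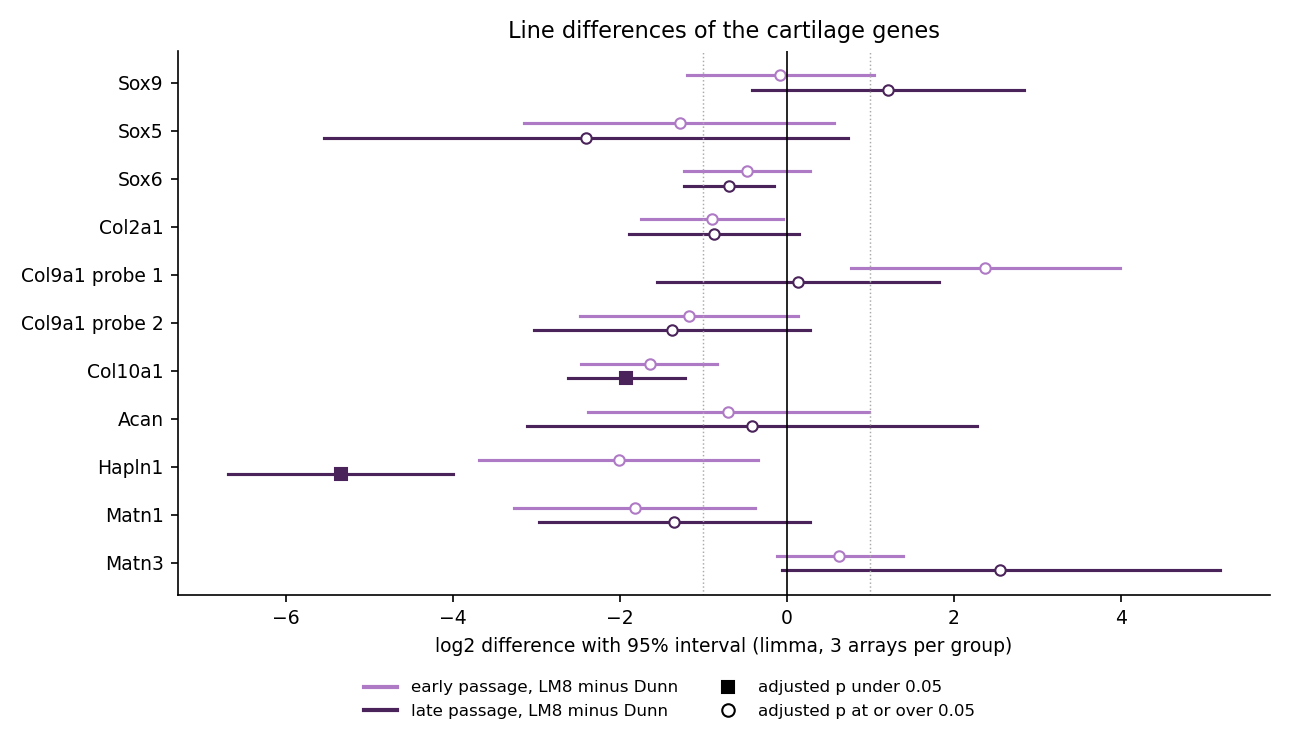
LM8 minus Dunn difference of each cartilage probe on the log2 scale with its 95% interval (limma, 3 arrays per group, 2 for Col2a1 in Dunn), at early and late passage; squares mark an adjusted p under 0.05 and dotted lines 2-fold. Hapln1 moves from -2.01 at early to -5.34 at late passage, and Col10a1 stays near -1.64 and -1.92.

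Other genes of cartilage were read from lists of names, 22 matrix genes, 14 regulators and 5 genes of hypertrophic cartilage, all with a probe. In late versus early Dunn cells no gene of the 3 lists passed 2-fold at a false discovery rate under 0.05 by limma, and at the unadjusted level 1 matrix gene was higher (Epyc) and 1 lower (Prg4). These are beside 1.56% and 3.98% of all genes. Prg4 was above background on no array and has no fold, and Epyc was so on no early Dunn array. In LM8 cells 1 of 22 matrix genes rose and 1 fell with passage at the false discovery rate, beside 1.08% and 2.03% of all genes. Counts of 1 gene are too small to compare with these shares. Cnmd, which encodes the cartilage growth factor chondromodulin, was at -2.35, -2.48 and -2.26 in early LM8 and above background on no late LM8 array and no Dunn array. It fell at least 20.1-fold (adjusted p = 0.00012). Chst11, a sulfotransferase of chondroitin chains, rose at least 1.52-fold from a group at background (adjusted p = 0.00391), a call lost with a floor on dim signals, under normexp, in 1 fit over 12 arrays and without slide 1. No regulator passed.

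Mmp13, the collagenase of hypertrophic cartilage and of osteoblasts, fell with passage in LM8. It was at 0.22, 0.92 and 0.74 in early Dunn, 0.61, -0.47 and 0.07 in late Dunn, -3.10, -3.36 and -3.45 in early LM8 and -6.65, -6.23 and -6.42 in late LM8. The Dunn groups overlapped, and the LM8 groups lay apart from Dunn and from each other. In LM8 it fell by 3.13 on the log2 scale (SE 0.21, 8.77-fold, adjusted p = 0.0011). Col10a1, another marker of hypertrophic chondrocytes, rose over the same passages.

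Between the lines at early passage, 2 of 22 matrix genes were higher in LM8 (Cnmd and Papss2) and 1 lower (Comp) at a false discovery rate under 0.05. At late passage 1 was higher (Papss2) and 2 were lower (Comp and Epyc). Of 14 regulators 1 was higher at each passage (Ihh), and of the hypertrophic list 1 was lower at each (Mmp13). Of all genes, 1.49% were higher and 3.77% lower at early passage, and 1.36% and 2.87% at late passage. The share of all genes called at both passages was not counted. Without each array in turn Mmp13 kept its calls, with differences from -4.13 to -3.78 at early and -6.77 to -6.24 at late passage on the log2 scale. Papss2, which makes the sulfate donor for proteoglycans, was above background on all 6 LM8 arrays, from 0.14 to 0.63, and on 1 of 6 Dunn arrays, from -5.92 to -3.22. At early passage Papss2 was at least 31.8-fold higher in LM8 (adjusted p = 0.0112 by limma). The late difference, an estimate and not a bound, was 66.2-fold (adjusted p = 0.000644 by limma), with 1 of 3 late Dunn arrays above background. Comp, a cartilage and tendon matrix protein, was 3.77-fold and 6.42-fold lower in LM8 at the early and late passage (adjusted p = 0.0273 and 0.0362). Ihh, the signal of prehypertrophic chondrocytes, was higher in LM8, by at least 2.99-fold at early passage (adjusted p = 0.0318 by limma). At late passage, with 2 of 3 Dunn arrays above background, the estimate was 3.31-fold and is not a bound (adjusted p = 0.0469 by limma). Epyc, a small proteoglycan, was above background only in late Dunn and at least 5.61-fold lower in late LM8 (adjusted p = 0.0398). Many of these calls needed every array. At early passage those of Ihh, Cnmd, Papss2 and Comp were lost without any 1 of the 3 LM8 replicates or replicate 3 of Dunn, with the largest adjusted p = 0.162 (Ihh, without replicate 3 of LM8). At late passage those of Ihh, Comp and Epyc were lost without any 1 of the 3 LM8 replicates or replicate 3 of Dunn, with the largest adjusted p = 0.255 (Ihh, without replicate 2 of LM8), and that of Ihh also without replicate 2 of Dunn. With the slide block Ihh, Comp and Epyc lost theirs as well, as did Cnmd at early passage (adjusted p = 0.0565) and Mmp13 at late passage (0.0511). By the methods' t-test the early calls of Papss2, Ihh and Cnmd were lost (adjusted p = 0.0623, 0.0781 and 0.077), as were the late calls of Comp and Epyc (0.0562 and 0.0636). Normexp lost Cnmd (0.847) at early passage and Ihh, Epyc and Comp (0.784, 0.102 and 0.0522) at late passage, and Comp lost its early call without slide 1 (0.132). The plot of these genes shows where the lines separate.

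**Figure D5:**
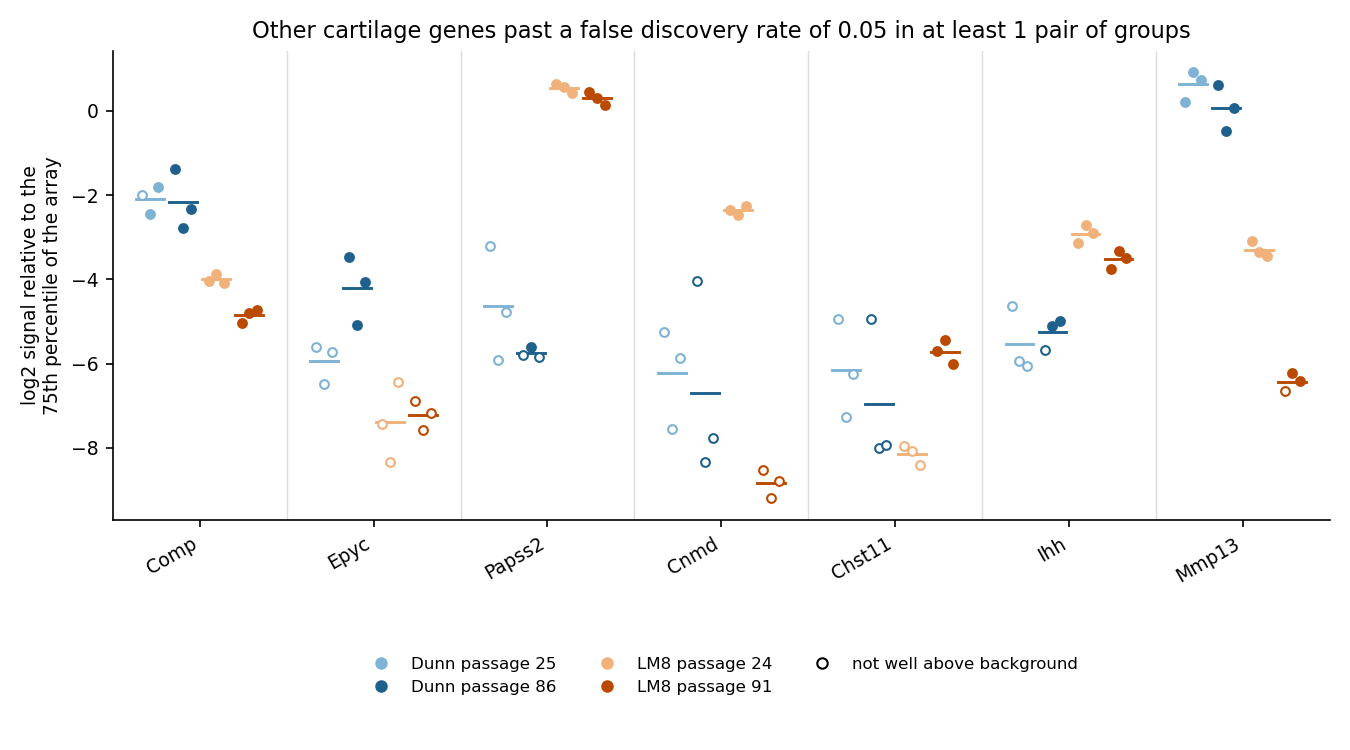
Level of 7 other cartilage genes (log2 signal relative to the 75th percentile of the array) on each array, with a bar for the mean of each group and open circles where the probe was not well above background. Papss2 and Ihh are higher in LM8, Comp and Mmp13 lower, and Cnmd is above background in early LM8 only.

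In the pooled comparison 1 of 22 matrix genes was higher and 11 were lower at a false discovery rate under 0.05, beside 5.35% and 33.2% of all genes. Among the 14 regulators 1 was higher (Ihh) and 6 were lower. Of the lower matrix genes, Col11a1, Cytl1, Prg4, Scrg1, Snorc and Ucma were above background on no array. The same held for the lower regulators Bmpr1b, Foxa3 and Pthlh, so these calls compare background readings and have no fold. On probes above background on every array of at least 1 group, 5 matrix genes and 2 regulators were lower. Without slide 1 the lower matrix genes lost their calls except Comp and Mia, and all 6 lower regulators did, with adjusted p = 0.0542 for Fgfr3, 0.0559 for Col27a1, 0.0578 for Pth1r, 0.0595 for Epyc and 0.0868 for Col9a2. The Fgfr3 call came from a probe other than its brightest. The brightest had 1 value in early Dunn (1.64) and was not tested in the pooled fit. Its means were 3.16 in late Dunn, 3.13 in early LM8 and 2.9 in late LM8. Under normexp correction Ihh turned to -0.53 at early passage and -0.23 in the pooled fit, and without scaling Col9a2 and Pth1r turned to 0.12 and 0.06.

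The labelled osteoblastic character was read from 12 markers, of which 11 had a probe. Alpl, Col1a1, Col1a2, Dlx5, Ibsp, Runx2, Sp7 and Spp1 were among those above background on every array with a value. No osteoblast marker differed between passages of either line past a false discovery rate under 0.05, with 1 at the unadjusted level in each line (Dmp1, lower in late Dunn and higher in late LM8). Of the markers of other tissues, the muscle factors Myod1 and Myog and the epithelial genes Cdh1 and Krt8 were above background on no array. The muscle gene Des was above background on 1 array of early Dunn, at -4.17 to -3.57, and on all 9 others, at -2.55 to -1.11 in late Dunn, -4.42 to -2.80 in early LM8 and -3.15 to -2.44 in late LM8, and it was called higher in late Dunn at the unadjusted level. Csf1r, Kdr and Plin1 were above background on all 12 arrays by the probe with the highest mean. Another Kdr probe was so on none, and other Csf1r probes on some. Of the other macrophage, endothelial and adipocyte markers with a probe, Cdh5 and Fabp4 passed on no array. Ptprc, Adgre1, Pecam1 and Adipoq passed on some. Among the tendon markers, Tnmd passed on no array and Mkx on some. Scx, a factor of tendon progenitors, was above background on all 12 arrays and ran from -1.61 to -0.96 in early Dunn, -3.24 to -1.63 in late Dunn, -4.57 to -4.36 in early LM8 and -6.46 to -5.91 in late LM8, with no overlap between the lines. The part of such genes in the cartilage results was not tested.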

How the data were processed

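RNA of 12 samples was hybridised to single-colour Agilent 4x44k mouse arrays. The authors deposited the scanner output, in which Agilent Feature Extraction (version 10.7.3 in the submitters' processing notes) had subtracted background to give a processed intensity per spot. Their deposited table holds the same intensity, rounded, without scaling between arrays. The 43020 non-control spots held 39429 probes, of which 26581 (67.4%) matched 20144 genes through their accessions in RefSeq (GRCm38.p6).

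Spots flagged as outliers were left out, spots of a probe were averaged, and log2 values were taken relative to the 75th percentile of the array; the deposited intensity is the base of every log2 level. A probe was called well above background when the scanner software did so for most of its spots. A gene was called when at least 1 of its probes passed, and its lead probe was that with the highest mean over 12 arrays. Tests used limma (version 3.58.1, R version 4.3.3) on the arrays of the groups compared (all 12 for the interaction), requiring 2 values per group, with Benjamini-Hochberg adjustment over all probes tested. Calls were over 2-fold at an unadjusted p under 0.05 or at a false discovery rate under 0.05. The p-values measure the spread between these arrays, and 3 per group limit the precision. They do not measure the spread between repeated passagings of a line. Where no array of a group was above background, a fold is a bound from the lowest signal well above background.

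Replicate numbers mark the slide in the array files, with 4 arrays on each of 3 slides. Deviations from the group means correlated over 0.1 in 12 of 18 same-number pairs (range -0.23 to 0.683). The block is therefore given where it changes a call. Alternatives were quantile normalization, normexp (offset 50), the deposited table, a floor of -6.18 on dim signals, a filter on dim probes, 1 probe per gene, the slide block, 1 fit over 12 arrays, the methods' t-test and leaving out each array. For the pooled comparison, a fit with passage stage as a covariate was run as well. Keeping flagged spots and leaving out slide 1 were chosen after seeing the data. Normexp was planned on mean signals, which the files lack, and used median signals. The code was tested on simulated data. Figures used matplotlib 3.10.9 and tables pandas 2.3.3 in Python 3.11.15. The members and lists were chosen with earlier results of these data known. Named genes were all members and, for other lists, up to 4 per comparison by size of the difference. Genes are also named outside this rule, as in the pooled comparison, where a limit on their call is given. No member met the rule for naming genes of similar pattern.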

Additional observations from a re-analysis of the deposited data

Results flagged for a closer look

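Mmp13, the collagenase of hypertrophic cartilage and osteoblasts, was picked out because its passage difference differed between the lines by a test of that difference itself. The change with passage in LM8 minus that in Dunn was -2.58 on the log2 scale (SE 0.44, interval -3.57 to -1.59, adjusted p = 0.0445 by limma). Mmp13 differed by -0.55 between the Dunn passages and by -3.13 between the LM8 passages, where 2 of 3 late arrays were above background. With the replicate block the adjusted p was 0.0917. Under normexp correction the difference was -0.94, less than 2-fold, and the call was lost (adjusted p = 0.591). The call was lost without any 1 of the 6 LM8 arrays, any 1 of the 3 early Dunn arrays or replicate 3 of late Dunn, with the largest adjusted p = 0.152 without replicate 1 of early LM8, and also without slide 1 (-1.89, adjusted p = 0.232). The cause was not tested.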

How the results depend on the processing

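Counts below are cartilage genes over 2-fold at the unadjusted level, then at the false discovery rate. In late versus early Dunn (2 and 0) they were 1 at the unadjusted level under normexp, 1 at the false discovery rate with the filter on dim probes, 2 at that rate in 1 fit over 12 arrays, and 4 and 1 without slide 1. In late versus early LM8 (3 and 2) they were 1 and 0 under normexp, and at the false discovery rate 1 with 1 probe per gene, 1 with the replicate block, 1 in 1 fit over 12 arrays, 0 by the methods' t-test and 0 without slide 1. Between the lines at early passage (4 and 0) they were 8 and 7 under normexp, 2 and 1 with the floor, 1 and 1 with the filter, 2 at the unadjusted level by the methods' t-test, and at the false discovery rate 2 in the deposited table, 1 with 1 probe per gene and 1 in 1 fit over 12 arrays. At late passage (2 and 2) they were 4 and 1 in the deposited table, 4 and 0 with the replicate block and 4 at the unadjusted level without slide 1. With passages pooled (6 and 3) they were 3 after quantile normalization and 3 in the deposited table at the unadjusted level, 2 and 1 with the floor, 3 and 1 with the filter, and at the false discovery rate 6 under normexp, 5 in 1 fit over 12 arrays, 1 with flagged spots kept and 0 without slide 1. The interaction count at the unadjusted level (1) was 2 after quantile normalization, under normexp, in the deposited table, with the floor, with the filter, with the replicate block, with flagged spots kept and without slide 1.

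Leaving out each array gave 2 to 4 and 0 to 0 in Dunn, 2 to 4 and 2 to 2 in LM8, 3 to 4 and 0 to 3 at early passage, 2 to 4 and 0 to 3 at late passage, 3 to 6 and 1 to 4 pooled, and 1 to 3 and 0 to 1 for the interaction. Where this left 2 arrays in a group, limma pooled the spread over both groups.

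Signs turned under normexp for Col10a1 in Dunn (-0.03), Col9a1 and Ihh at early passage (-0.73 and -0.53) and Matn3 and Ihh pooled (-0.79 and -0.23). Without scaling they turned for Col2a1 at early passage (0.56), Sox6 at late passage (0.2) and Sox6, Col2a1, Col9a2 and Pth1r pooled (0.61, 0.36, 0.12 and 0.06). Of the other values for single genes, 889 kept direction and side of the threshold, 261 became weaker and 29 stronger. The cause of these changes was not tested. Signal near background limits Sox5, Acan, Col9a1, Matn1 and Matn3, for which most Dunn readings are bounds.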
